A study of Mus musculus with 4 samples.

Results

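The genes described here are 47 genes of the interferon response, 43 antiviral genes that type I interferon induces and 4 genes for subunits of the interferon receptors. They were chosen by their known function, with earlier results of these data known, so their counts set beside all genes are descriptions. They were measured in CD4 cells of sanroque mice (san/san, 2 arrays) and of wild type mice (+/+, 2 arrays) on Affymetrix MOE430A arrays. Sanroque arose from ENU mutagenesis of C57BL/6 males. It is an autosomal recessive line with antinuclear autoantibodies, and its mutation lies in Rc3h1, the gene for the RNA-binding protein Roquin-1. The labels used here state neither the ages of the mice nor whether each array holds RNA of 1 mouse or of several, and p-values therefore cover only array-to-array spread, possibly technical. In the header of wild type array 2 stand the letters CBA, unexplained by any label, so an effect of strain background cannot be told apart from the mutation. Without that array the stimulated genes described below had a median log2 fold change of 0.53, beside 0.49 with all 4 arrays. Of the 47 genes, 37 had at least 1 probe set annotated to them alone, 33 stimulated genes and all 4 receptor genes, and all 37 were bright enough to be tested. For Ifi44, Xaf1, Phf11d, Dtx3l, Ddx58, Oas1g, Ly6a and Ly6e no probe set of the annotation used here named the gene alone, and Isg15 and Ly6c1 were found only on probe sets with several symbols. The signals of these 10 genes are not analysed here, and those with a promoter entry enter the promoter search alone. The whole table held 12393 genes by the same rule, of which 7860 were tested.

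Type I interferons bind a receptor made of IFNAR1 and IFNAR2, whose kinases JAK1 and TYK2 start the signal. A complex that includes STAT2 and IRF9 then binds the interferon stimulated response element, a pair of GAAA repeats, in the promoters of antiviral genes. The products detect foreign RNA or DNA, degrade or modify it, block viral entry and budding, or turn the signal off again. Interferon gamma acts through IFNGR1 and IFNGR2 and induces many of the same genes. T cells carry both receptors and show a low, standing level of such transcripts without infection.

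The comparison asked whether these transcripts differ between sanroque and wild type CD4 cells. Most stimulated genes had a somewhat higher signal in sanroque. Of 33 measured, 30 had a positive log2 fold change (54.2% of all 7860 genes tested did), with a median of 0.49 on the log2 scale, or 1.40-fold, beside 0.03 over all genes. For 25 of the 33 both sanroque arrays lay above both wild type arrays, against 22.3% of all genes, and for 1, Sp110, both lay below, against 16.3%. Few genes passed on their own. Each gene was counted by its brightest probe set. With limma and Benjamini-Hochberg adjustment over all probe sets only Parp14 rose (0.776% of all genes were called higher) and none fell (0.331% were called lower). A dimmer probe set of Samhd1, not counted here, passed with and without the block described below. At an unadjusted p under 0.05, 15 of the 33 were higher, against 6.16% of all genes, and none lower, against 3.44%. The number of calls depended on single arrays. It was 0 without sanroque array 2, where 0.382% of all genes were called higher, 4 without wild type array 1 (1.55%) and 2 without wild type array 2 (0.84%). Without sanroque array 1 (0.547%) the single call was Rtp4 in place of Parp14. Both number 1 arrays were hybridised on 1 day and both number 2 arrays on another, and with that pairing as a block 12 of the 33 rose and none fell, where 3.92% of all genes rose and 2.12% fell. Those 12 were Parp14, Parp9, Rtp4, Ifitm3, Ifitm2, Oas3, Oas2, Oasl2, Ifit1, Rsad2, Lgals3bp and Isg20. With so few arrays the blocked fit has very little spread within each gene to measure, so its p-values rest mostly on variance borrowed from other genes. RNA was taken from a population of cells, so more cells of a type and more RNA per cell cannot be told apart.

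**Figure D1:**
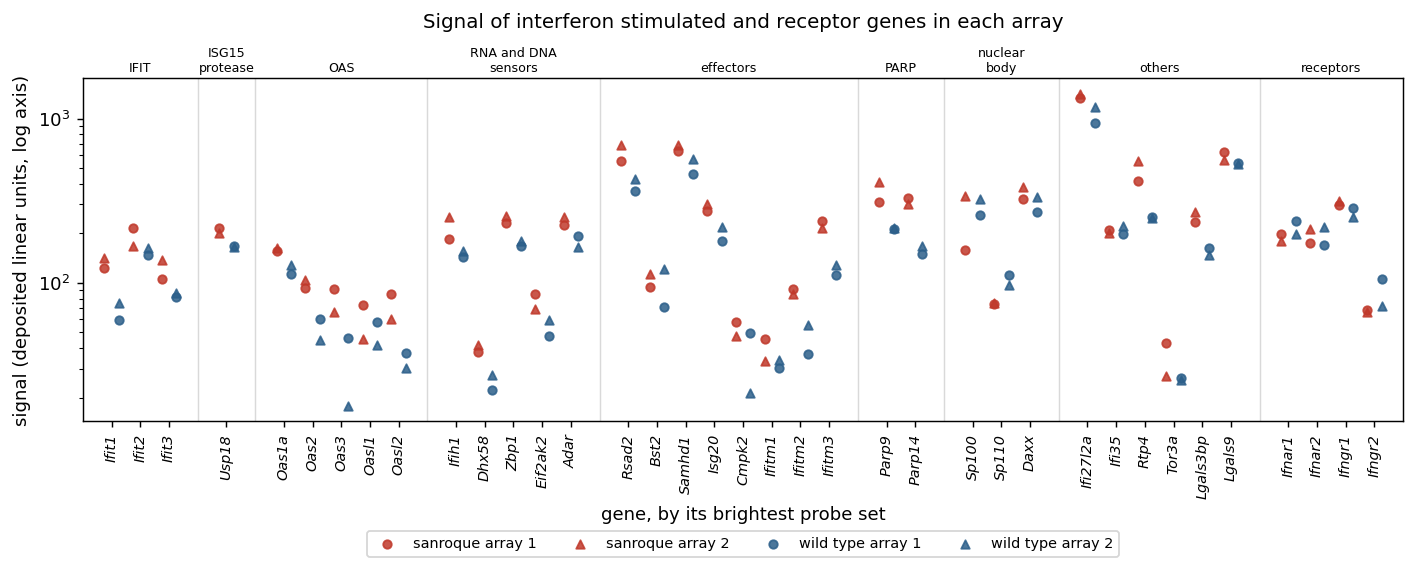
Signal of the 37 measured genes in each array, by the brightest probe set of each gene, on a log axis in the deposited linear units; red symbols are sanroque and blue symbols wild type, circles array 1 and triangles array 2, and grey lines part the role groups. For 25 of 33 stimulated genes both red symbols stand above both blue ones, while the 4 receptor genes at the right show no common direction.

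Sequences of the promoters are shown for the genes past the blocked test that hold the core of the response element in the 250 bases before their RefSeq start, the element through which type I interferon acts. The core was searched as GAAANNGAAA on both strands, where it reads TTTCNNTTTC on the other strand, with overlapping matches counted. The sequences are from RefSeq, build GRCm38.p6, written in the direction of transcription with matches in capitals. Ifit1 lies at chr19:34640639-34640888 on the plus strand, Oas3 at chr5:120777660-120777909, Rsad2 at chr12:26456453-26456702 and Ifitm2 at chr7:140955962-140956211, these 3 on the minus strand.
Ifit1: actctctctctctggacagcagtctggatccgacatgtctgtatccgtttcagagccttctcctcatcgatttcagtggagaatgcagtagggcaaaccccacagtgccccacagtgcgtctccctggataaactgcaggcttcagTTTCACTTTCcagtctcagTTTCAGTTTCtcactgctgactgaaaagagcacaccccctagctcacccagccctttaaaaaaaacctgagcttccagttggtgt
Oas3: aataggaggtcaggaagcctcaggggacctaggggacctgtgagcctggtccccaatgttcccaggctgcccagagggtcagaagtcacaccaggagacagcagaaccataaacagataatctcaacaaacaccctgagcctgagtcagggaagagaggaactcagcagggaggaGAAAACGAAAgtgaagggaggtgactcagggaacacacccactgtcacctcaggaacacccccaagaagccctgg
Rsad2: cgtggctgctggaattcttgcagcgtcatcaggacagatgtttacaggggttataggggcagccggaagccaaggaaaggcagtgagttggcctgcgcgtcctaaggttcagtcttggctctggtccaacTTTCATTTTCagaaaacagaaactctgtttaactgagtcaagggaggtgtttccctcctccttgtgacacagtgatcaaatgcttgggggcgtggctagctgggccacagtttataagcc
Ifitm2: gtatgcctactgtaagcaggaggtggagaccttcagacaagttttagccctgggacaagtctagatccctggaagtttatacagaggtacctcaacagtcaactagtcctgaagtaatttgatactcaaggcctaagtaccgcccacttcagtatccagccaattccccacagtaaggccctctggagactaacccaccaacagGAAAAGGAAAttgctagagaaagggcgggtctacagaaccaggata
Ifit1 had 2 matches, the first starting at -104 and the last at -85 from the transcription start. Oas3 had 1 at -75, Rsad2 1 at -120 and Ifitm2 1 at -46. Promoter entries existed for 32 of the 43 stimulated genes, and 10 of them held the core, or 31.2%, against 3.46% of the 27025 genes with an entry. The other 6 were Bst2, Ifit3, Isg15, Lgals9, Oas1a and Oas1g. The 43 genes were listed because type I interferon induces them, so this share describes the list and not the genotypes. Only exact matches in these 250 bases were searched, so a gene without the core here can hold the element elsewhere or in another form. Of the 12 genes past the blocked test 8 had an entry, while Parp14, Parp9, Rtp4 and Oas2 had none and were not searched. Among measured stimulated genes with an entry, the 8 with the core had a median log2 fold change of 0.56, between 0.14 for Bst2 and 1.25 for Oas3, and the 16 without it had a median of 0.39, between -0.45 and 0.97. Both sanroque arrays lay above both wild type arrays for 7 of the 8 and for 9 of the 16, against 22.3% of all genes. In the blocked test 4 of the 8 and 4 of the 16 rose, against 3.92% of all genes, Ifitm3 and Oasl2 among those without the core. None of the 4 receptor genes held it.

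IFIT proteins act against foreign RNA. Ifit1, which recognises caps without ribose methylation, had a signal of 122.7 and 141.1 in sanroque arrays 1 and 2, against 59.4 and 75.4 in wild type arrays 1 and 2. Its log2 fold change was 0.92 with a standard error of 0.22, and it passed with the block (limma adjusted p = 0.00127) but not without it (0.0898). Ifit2, the brightest of the 3, had 216.1 and 166.7 in sanroque, against 148.1 and 162 in wild type. Its genotypes did not overlap, but sanroque array 2 lay close to the higher wild type array and the change of 0.28 ± 0.20 (standard error) did not pass (adjusted p = 0.729; 0.384 with the block). Ifit3, a partner that stabilises Ifit1 binding in humans, had 0.49 and did not pass either. The protease gene Usp18, which strips ISG15 from proteins and damps the receptor, had 214.5 and 201.2 in sanroque, against 166.9 and 165.2 in wild type (0.31 ± 0.18, adjusted p = 0.637; 0.29 with the block). The arrays of each genotype were close together for Usp18, and its change was smaller than that of Ifit1.

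The OAS enzymes make short oligoadenylates on double-stranded RNA, which switch on RNase L. Of the 5 measured OAS genes, 3 rose with the block, against 3.92% of all genes. All 5 were higher in both numbered pairs, against 34.8% of all genes. Oas3 had the largest log2 fold change of all members, 1.25 with a standard error of 0.37, with signals of 91.6 and 66.2 in sanroque, against 46.2 and 17.9 in wild type (limma adjusted p = 0.209; 0.000875 with the block). Wild type array 2 was the lowest of the 4, and the difference was 0.90 in pair 1 and 1.60 in pair 2; without that array the change was 0.69. Oas2 had 93.6 and 104.5 in sanroque, against 60.4 and 45.2 in wild type (0.85 ± 0.23, adjusted p = 0.162; 0.00791 with the block). Oasl2, an OAS-like gene, had 86.2 and 60.6 in sanroque, against 37.7 and 30.4 in wild type (0.97 ± 0.28, adjusted p = 0.191; 0.00684 with the block). In these 3 genes each sanroque array lay above both wild type arrays. The brightest, Oas1a, had 157.4 and 163.1 in sanroque, against 113.8 and 127.9 in wild type, with a change of 0.39 ± 0.19 that did not pass (adjusted p = 0.541; 0.184 with the block). Oasl1, which holds back translation of Irf7 in mice, had 0.21 and overlapping genotypes.

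Sensors and binders of nucleic acid were measured by 5 genes. All 5 had sanroque arrays above wild type arrays, against 22.3% of all genes. Their log2 fold changes lay within a narrow range, 0.40 to 0.58, and none passed the limma test with or without the block. At an unadjusted p under 0.05, 2 were higher, Zbp1 and Ifih1, against 6.16% of all genes. Adar, which edits adenosine to inosine in double-stranded RNA, was the brightest, with 223.5 and 253.4 in sanroque, against 191.9 and 166.5 in wild type (0.40 ± 0.18, adjusted p = 0.511; 0.15 with the block). Ifih1, which encodes the RNA sensor MDA5, had 0.50 (adjusted p = 0.0620 with the block), and Zbp1, a sensor of Z-form nucleic acid, 0.47 (0.0736 with the block). Eif2ak2, the kinase PKR that stops translation on double-stranded RNA, had 0.49, and Dhx58, the helicase LGP2, had 0.58 at signals of 22.3 to 42.2, near the lower end of those tested, and 0.05 by its other tested probe set.

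Among 8 effectors that act on viral entry, budding or nucleotides, 4 rose with the block, against 3.92% of all genes. Ifitm3, which blocks fusion of viral and endosomal membranes, had 238.9 and 216.5 in sanroque, against 111.2 and 128.4 in wild type. Its log2 fold change was 0.90 with a standard error of 0.19, and it lay just outside the threshold without the block (limma adjusted p = 0.0531; 0.00055 with the block). Its relative Ifitm2 had 91.9 and 85.4 in sanroque, against 37.1 and 55.5 in wild type (0.88 ± 0.25, adjusted p = 0.195; 0.00907 with the block), while Ifitm1 had 0.24 with overlapping genotypes. IFITM genes are close in sequence, and cross-hybridisation between their probe sets was not tested. Rsad2, which encodes viperin, an enzyme that makes a chain-terminating nucleotide, had 548.4 and 694 in sanroque, against 361.7 and 430.7 in wild type (0.64 ± 0.19, adjusted p = 0.213; 0.00451 with the block). Its other probe sets had 0.63 and 0.89, and both passed with the block as well (0.0240 and 0.00239). The exonuclease gene Isg20 had 272.8 and 301.8 in sanroque, against 179 and 219.5 in wild type (0.52 ± 0.19, adjusted p = 0.354; 0.0395 with the block).

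Samhd1, which depletes deoxynucleotides, was the brightest effector by mean signal, with 633 and 693.7 in sanroque, against 457 and 563.4 in wild type (0.38 ± 0.18, adjusted p = 0.53; 0.117 with the block). Its 4 probe sets differed. One with 450.5 and 518.6 in sanroque, against 268.4 and 258.5 in wild type, passed the test without the block (0.86, limma adjusted p = 0.0457), and another had -0.05. Cmpk2, a mitochondrial nucleotide kinase gene, had 0.58 with overlapping genotypes by its brightest probe set, and 0.83 without overlap by its other one. Bst2, which encodes tetherin and also marks plasmacytoid dendritic cells, had 93.8 and 113.4 in sanroque, against 71.6 and 121.2 in wild type, so that its genotypes overlapped. Over all 37 genes, 11 had more than 1 probe set, and 11 of the 14 further probe sets that were tested had the sign of the brightest.

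Parp14 and Parp9, genes of the ADP-ribosylation group that regulates interferon signalling, were both higher. Parp14, a mono-ADP-ribosyltransferase, had 328.4 and 301.4 in sanroque, against 149.4 and 167.7 in wild type, with a wide gap between the genotypes. It rose by 0.96 with a standard error of 0.18 (limma adjusted p = 0.0299; 0.000103 with the block), by 1.11 in pair 1 and 0.82 in pair 2. It did not stay past the threshold after quantile normalization (adjusted p = 0.0511), when sanroque array 1 (0.125) or 2 (0.0731) was left out, with each array centred on its median (0.227), without the filter (0.0812) or without the variance trend (0.209). Parp9, the partner of the ubiquitin ligase DTX3L, had 308.9 and 412.2 in sanroque, against 211.8 and 214.3 in wild type (0.73 ± 0.19, adjusted p = 0.141; 0.0027 with the block).

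Of 3 measured genes of nuclear bodies none passed the limma test, with or without the block or at an unadjusted p under 0.05, and their signs differed. Sp100, a scaffold of these bodies, had 158.5 and 336.4 in sanroque, against 259.7 and 323.4 in wild type, with the low value in sanroque array 1 alone (-0.32, adjusted p = 0.825). Sp110 had 74.1 and 75.2 in sanroque, against 111.7 and 96.8 in wild type (-0.45, adjusted p = 0.516; 0.169 with the block), and its other probe sets had -0.38 and 0.38. Daxx, a histone chaperone gene and the brightest of this group by mean signal, had 324.8 and 382.7 in sanroque, against 271 and 333.8 in wild type (0.23 ± 0.19, adjusted p = 0.788; 0.449 with the block). For Daxx the genotypes overlapped, as sanroque array 1 lay below wild type array 2.

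Rtp4, a receptor transporter gene with antiviral activity, led the remaining 6 genes. It had 414.6 and 547.7 in sanroque, against 251.9 and 248.1 in wild type (0.91 ± 0.19, limma adjusted p = 0.0504; 0.000136 with the block). Lgals3bp, a secreted glycoprotein gene, had 235.7 and 271.2 in sanroque, against 163.9 and 148.3 in wild type (0.68 ± 0.18, adjusted p = 0.152; 0.0076 with the block). Ifi27l2a had the highest signal of all members in every array, 1328.4 and 1409.4 in sanroque, against 936.4 and 1178.7 in wild type (0.38 ± 0.18, adjusted p = 0.549; 0.109 with the block). Ifi35 had -0.03 with overlapping genotypes. Lgals9, the gene of galectin-9, had 0.15, and Tor3a, a torsin gene, 0.33, both smaller than their standard errors of 0.17 and 0.37.

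**Figure D2:**
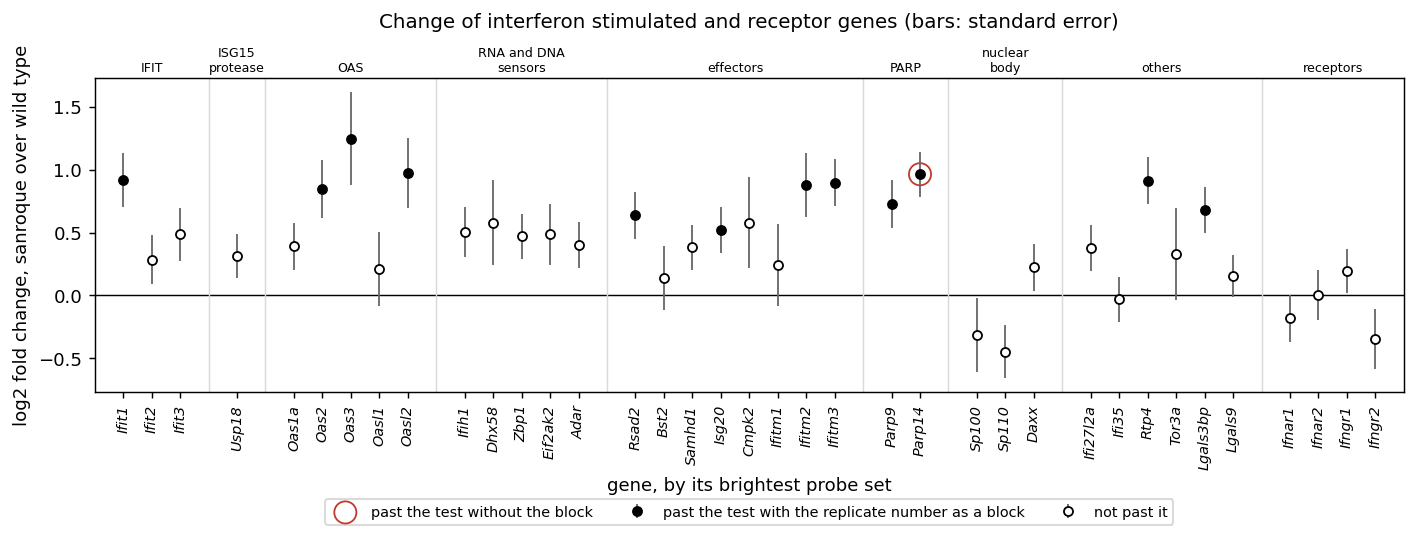
Log2 fold change of sanroque over wild type for the 37 measured genes by role, with the standard error of the fit without the block as bars; filled points passed the test with the replicate number as a block, open points did not, and the ring marks the gene that passed without it. The filled points number 12 and lie between 0.52 for Isg20 and 1.25 for Oas3, and Sp100, Sp110 and Ifi35 are the stimulated genes below 0.

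None of the 4 receptor genes was called by limma, with or without the block or at an unadjusted p under 0.05. Ifngr1, the ligand-binding chain for interferon gamma, was the brightest, with 299.1 and 314.5 in sanroque, against 284.2 and 251.9 in wild type (0.19 ± 0.17, adjusted p = 0.821; 0.556 with the block). Ifnar1 had 199.4 and 180.1 in sanroque, against 236.6 and 197.1 in wild type (-0.18, adjusted p = 0.854). Ifnar2 had 174.8 and 213.4 in sanroque, against 170.4 and 218.3 in wild type, a change of 0.00 with a standard error of 0.20, although its dimmer probe set had 0.38. Ifngr2 had -0.35 by its brightest probe set and 0.40 by the other, so no direction can be given. The median of the 4 was -0.09. With standard errors of 0.17 to 0.24, changes as small as those of the sensor genes, which did not pass either, were not detectable here in a single receptor gene.

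The stimulated genes were higher in both pairs of arrays. The median log2 difference was 0.51 in pair 1 and 0.49 in pair 2, beside 0.04 and 0.03 over all genes, and 28 of 33 were higher in both pairs, where 34.8% of all genes were. Only Sp110 was lower in both, where 27.4% of all genes were, and Sp100, Ifi35, Bst2 and Ifitm1 changed sign between pairs. Within a genotype the median of the 33 genes differed less, by 0.09 between sanroque arrays 2 and 1 and by 0.12 between wild type arrays 2 and 1. The sizes of the 2 pair differences correlated across the 33 genes with r = 0.56 and rho = 0.51, beside 0.47 and 0.36 across all genes, a description only, since genes of an array share its RNA and scaling. The brightness of a gene was hardly related to its change (rho = -0.15 across the 33 genes).

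**Figure D3:**
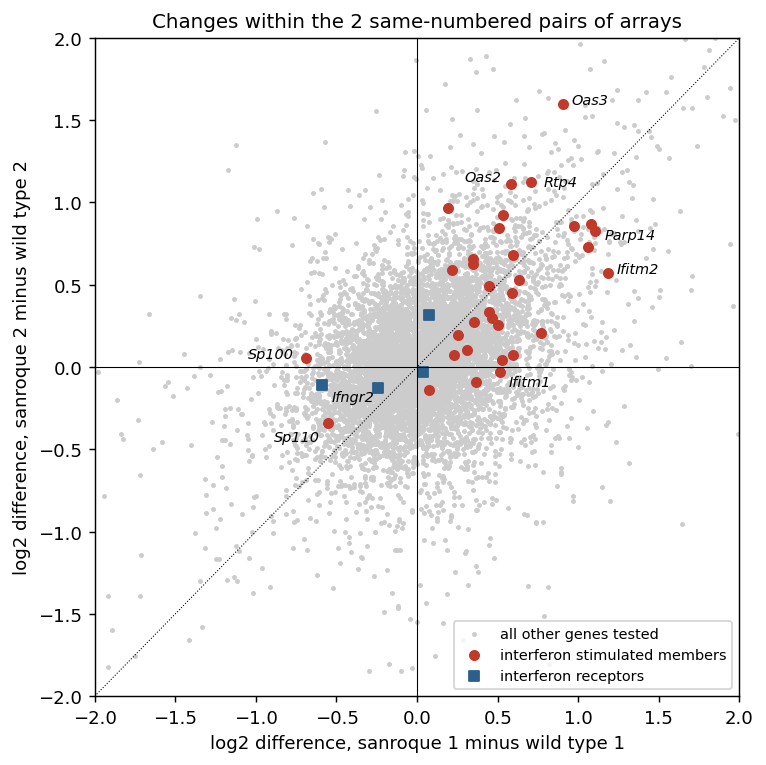
Log2 difference of sanroque minus wild type in pair 1 (horizontal axis) and pair 2 (vertical axis) for the 33 stimulated genes (red), the 4 receptor genes (blue squares) and the other 7823 genes tested (grey, of which 40 lie outside the axes). Of the red points 28 lie above 0 on both axes, and the receptor genes lie on both sides of 0.

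Further genes of the interferon pathway were taken from a list of 80, written with earlier results of these data known, and 57 of them were tested. In the fit without the block 2 rose and none fell, where 0.776% and 0.331% of all genes did, and with the block 15 rose and 1 fell, where 3.92% and 2.12% did. The median log2 fold change was 0.29, and 28 had both sanroque arrays above both wild type arrays (22.3% of all genes) and 3 had both below (16.3%). Without the block the calls numbered 7 without wild type array 1 (1.55% of all genes were called higher in that fit), 4 without wild type array 2 (0.84%), 2 without sanroque array 1 (0.547%), and 1 higher and 1 lower without sanroque array 2 (0.382% and 0.407%). Socs3, a feedback inhibitor of cytokine receptors, had 562.6 and 701.6 in sanroque, against 234.8 and 247.3 in wild type, and rose by 1.36 (limma adjusted p = 0.0044; 0.101 without the variance trend). The GTPase gene Iigp1 had 588.1 and 714.8 in sanroque, against 305.5 and 324 in wild type, and rose by 1.03 (adjusted p = 0.0209). Iigp1 was not called with each array centred on its median (0.263), without the filter (0.065), without the variance trend (0.204) or without sanroque array 2 (0.13). With the block the restriction factor genes Trim30a (0.88) and Apobec3 (0.84), the helicase gene Ddx60 (0.82), the peptide transporter gene Tap1 (0.79), the GTPase gene Igtp (0.79), Irf8 (0.74) and Stat2 (0.67) rose as well. Single arrays weighed on some of these values, with Trim30a at 0.53 without wild type array 1, and Ddx60 at 0.47 and Stat2 at 0.44 without wild type array 2. Ptpn6, the phosphatase SHP-1, was the one that fell, with 264.9 and 448 in sanroque, against 582.8 and 585.9 in wild type. Its log2 fold change was -0.75, but -0.38 without sanroque array 1 and -0.41 as the mean of its probe sets. The kinases Jak1 and Tyk2 had 0.07 and -0.07, and neither sign held with every array left out in turn. Of the ligands on the list only Ifnb1 and Ifng were bright enough to be tested. Ifnb1 had 33.4 and 15.6 in sanroque, against 32 and 13.3 in wild type, high in both number 1 arrays and low in both number 2 arrays. Ifng had 22.5 and 19.9 in sanroque, against 37.9 and 56.2 in wild type (-0.94, limma adjusted p = 0.38, and 0.0532 with the block). Its sanroque mean of 21.2 lay below the filter of 21.3, so Ifng was tested only through its wild type signals. The size of its change is uncertain so near the lower end of the signals.

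Markers of other cells, which express interferon stimulated genes as well, were summed over each list. Beside the calls below, 0.776% of all genes were called higher without the block and 3.92% with it. Conventional dendritic cell and macrophage markers summed to 1963.2 and 1833.5 in sanroque, against 1035.4 and 1109.7 in wild type, and 1 of 8 tested rose, Lyz2 (4 with the block). Lyz2 had the largest gap of this list, with 642.6 and 637.6 in sanroque, against 201.1 and 210 in wild type. Csf1r, Fcgr1 and Mpeg1 rose only with the block, and Itgax, Adgre1, Cd68 and Cd14 were called in neither fit. Neutrophil markers summed to 1291.6 and 1349.5 in sanroque, against 514.2 and 492.9 in wild type, and 3 of 6 tested rose (5 with the block). Markers of memory or activated T cells summed to 1155.1 and 1096.8 in sanroque, against 435 and 372.9 in wild type, and 3 of 4 rose, Pdcd1, Icos and Cd44 (4 with the block). Those lists moved with genotype as the stimulated genes did, and their part in the result was not tested. Plasmacytoid dendritic cell markers, from cells that make much type I interferon, summed to 522 and 535.2 in sanroque, against 424.1 and 435.6 in wild type. Of their 5 tested genes only Irf8, also on the pathway list, rose, and only with the block, while Ccr9 had -0.50. Irf8 had 270.8 and 293.7 in sanroque, against 178.3 and 155.5 in wild type, and made up most of the gap. The median log2 fold change of the list was -0.06. B cell markers summed to 1146.2 and 1183.6 in sanroque, against 1113.4 and 1184.5 in wild type, with none of 6 tested called. CD8 T or NK cell markers summed to 429.8 and 419.3 in sanroque, against 399.8 and 340.8 in wild type. Of 7 tested only Nkg7 rose, and only with the block. Nkg7 had 126.9 and 139.9 in sanroque, against 76.2 and 73.1 in wild type, and the median log2 fold change of that list was -0.02. The 2 measured red cell markers summed to 931.4 and 1034.7 in sanroque, against 614.8 and 641.8 in wild type, nearly all from Alas2. Hba-a1, the other, had 26.2 and 7.3 in sanroque, against 10.4 and 4.4 in wild type, and was too dim to be tested. Alas2, the 1 tested, rose with the block (0.63, limma adjusted p = 0.0038) and was not called without it. The part of these lists in the result was not tested either. CD4 T cell markers, the check of the label, summed to 7925 and 8765.4 in sanroque, against 8645.4 and 9792.6 in wild type, with none of 6 called, and Cd4 and the Cd3 genes were bright in all arrays. No measured marker was listed at 0.

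**Figure D4:**
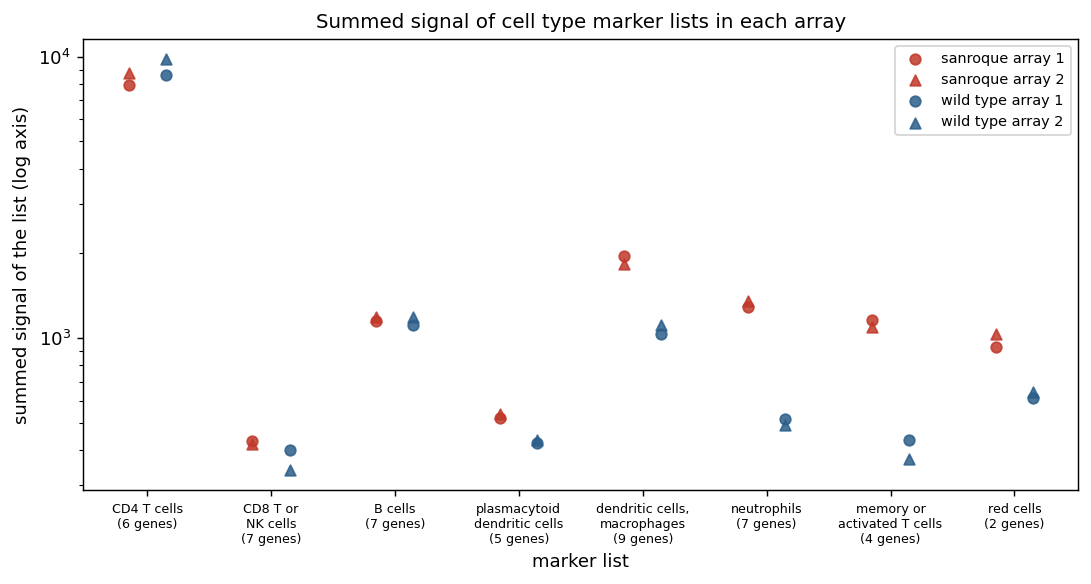
Summed signal of each marker list in each array, on a log axis, by the brightest probe set of each gene; red is sanroque and blue wild type, circles array 1 and triangles array 2. The neutrophil, macrophage and activated T cell sums stand higher in both sanroque arrays by the widest gaps, and Lyz2 is the largest part of the macrophage gap. The red cell, plasmacytoid dendritic cell and CD8 T or NK cell sums also stand higher. Those gaps came mainly from single genes, Alas2, Irf8 and Nkg7 in turn. The B cell and CD4 T cell sums overlap.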

How the data were processed

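The authors' deposited table gives each probe set a linear intensity in each array, with trimmed means of 99.59 to 99.97 on the 4 arrays and medians of 30.8 to 40.4. How the probes were summarised is not given in the sources used here, and no further scaling was applied. Per the file headers, same-numbered arrays shared a hybridisation and scan day, so the numbers pair the arrays; deviations from the genotype mean correlated with 0.392 between same-numbered arrays. A wash protocol was recorded for the number 1 arrays alone.

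The scale used was log2(signal + 6), with the rounded 20th percentile of all values as the pseudocount, which understates fold changes of dim genes. After 64 control probe sets and probe sets with a mean below the 40th percentile (21.3) were left out, 13579 of 22690 were fitted with limma 3.58.1 in R 4.3.3 (lmFit, eBayes with a variance trend), two-sided, without covariates, and again with the replicate number as a block. P-values were adjusted by Benjamini-Hochberg over all probe sets, with a threshold of 0.05. Symbols came from the platform annotation, updated through RefSeq. The brightest probe set by mean signal over the 4 arrays stood for a gene.

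Members and lists were chosen with earlier results of these data known. All measured members are accounted for by role, with values in every array for those past the test with or without the block and for the brightest of each role; the values of other members are given where a result needed them. Of the other pathway genes, those past the test and the 8 largest changes past the blocked test are named, with the ligands Ifnb1 and Ifng and the kinases Jak1 and Tyk2, named after their values were seen. Alternatives were quantile normalization, median centring, pseudocounts of 1 and 24, no filter or a stricter one at the 60th percentile, the block, no variance trend, each array left out, and the mean over a gene's probe sets. Precision is limited by the number of arrays. Figures were drawn with matplotlib 3.10.9.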

Additional observations from a re-analysis of the deposited data

How the results depend on the processing

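The higher median of the stimulated genes kept its direction under every alternative run: 0.39 under a pseudocount of 24, 0.40 with each array centred on its median, 0.46 under quantile normalization, 0.47 with the mean over a gene's probe sets, 0.51 with a pseudocount of 1, and 0.43 to 0.53 with 1 array left out. The count of stimulated genes called, 1 as reported, with 0.776% of all genes called higher, was 12 with the replicate block (3.92%), 4 with the mean over a gene's probe sets (1.16%), 3 with the filter at the 60th percentile (1.13%, over 26 stimulated genes), 2 with a pseudocount of 24 (0.814%), and 0 under quantile normalization (0.674%), with median centring (0.7%), without the filter (0.169%) and without the variance trend (0.204%); it ranged from 0 to 4 with 1 array left out. All these calls were higher in sanroque. For the other genes of the pathway, 2 as reported, the count was 16 with the replicate block, 5 with the mean over a gene's probe sets, 1 with median centring, 1 without the filter and 0 without the variance trend, and 2 to 7 with 1 array left out. The 16 pathway calls with the block were 15 higher and 1 lower. Of all genes, 1.11% were called in either direction as reported and 6.04% with the block. That share was 1.63% with the mean over a gene's probe sets and 1.08% with median centring. It was 0.274% without the filter and 0.318% without the variance trend. No receptor gene was called under any alternative. Signs of small changes were less stable. Of 58 genes named with a value, 9 turned sign in at least 1 alternative, and none of them passed the test in any. With 1 array left out, Sp100 ranged from -0.85 to 0.21, Oasl1 from -0.10 to 0.52, Bst2 from -0.22 to 0.49, Ifi35 from -0.12 to 0.052, Ifnar2 from -0.17 to 0.18, Ifnb1 from -0.38 to 0.60, Jak1 from -0.0038 to 0.15 and Tyk2 from -0.27 to 0.12. Ifnar2 was -0.089 and Jak1 -0.018 with median centring, Ifnar2 -0.0041 and Ifnb1 -0.0050 under quantile normalization, and Ifngr2 0.023 by the mean of its probe sets. The causes were not tested.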
